A study of Mus musculus with 4 samples.

Results

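Intermediate filament genes were examined in retinal endothelial cells of control and Zeb1-CKO mice. The group comprised 8 genes, matched by gene name, of the 54446 genes in the deposited table. They were the type II keratins Krt7 and Krt8, the type I keratins Krt18 and Krt19, vimentin (Vim), nestin (Nes), lamin A/C (Lmna) and lamin B1 (Lmnb1). Each of the 4 libraries was made from 100 endothelial cells, the cells lining blood vessels, sorted by flow cytometry from retinas of C57BL/6 mice at postnatal day 16. Of the 4 libraries, 2 came from controls and 2 from Zeb1-CKO mice, in which Zeb1, a zinc-finger repressor of epithelial genes, is targeted (a conditional knockout by the title, a knockdown by the genotype field). The sources used here do not name the Cre driver, the sorting marker or the number of animals behind a library. The libraries are therefore replicates by label only. The p-values rest on the spread between them, in part borrowed across genes, and that spread may be technical.

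Intermediate filaments are rope-like polymers of coiled-coil proteins that give cells and nuclei mechanical strength. Keratins assemble only as pairs of a type I and a type II chain, and Krt8 with Krt18 is the first pair made in simple epithelia, joined later by Krt7 and Krt19. Endothelial cells, like most mesenchymal cells, normally build their cytoplasmic filaments from vimentin, and nestin is a large partner that polymerises with vimentin in dividing or immature cells. Lamins form the meshwork under the nuclear envelope. The switch from keratin to vimentin is a classical marker of epithelial-mesenchymal transition, the process that ZEB1 is known to drive by binding E-box sequences in epithelial promoters. The comparison asks how the filament genes of these endothelial cells differ when Zeb1 is targeted.

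The E-box that ZEB factors bind is CACCTG on one strand and CAGGTG on the other, and the sequences before the transcription starts are shown here because Krt7, Krt8 and Krt18 rose together while Vim did not. They are the 250 bases before the start given by RefSeq on GRCm38.p6, the assembly also called mm10, written 5′ to 3′ on the gene's strand, with the E-box in capitals. The windows are chr15:101412153-101412402 (plus strand) for Krt7, chr15:102004343-102004592 (minus) for Krt8, chr15:102027966-102028215 (plus) for Krt18, chr11:99493121-99493370 (minus) for the further type I keratin Krt23, and chr2:13574061-13574310 (plus) for Vim.
Krt7: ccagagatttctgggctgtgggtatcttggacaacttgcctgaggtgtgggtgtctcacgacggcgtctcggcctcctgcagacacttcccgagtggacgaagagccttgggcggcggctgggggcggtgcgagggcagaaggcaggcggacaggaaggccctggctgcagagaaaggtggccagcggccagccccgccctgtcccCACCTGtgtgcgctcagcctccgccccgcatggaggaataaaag
Krt8: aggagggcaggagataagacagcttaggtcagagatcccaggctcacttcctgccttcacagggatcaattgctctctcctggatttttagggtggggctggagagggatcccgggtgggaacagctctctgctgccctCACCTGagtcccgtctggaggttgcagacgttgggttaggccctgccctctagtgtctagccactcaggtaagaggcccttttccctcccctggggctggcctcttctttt
Krt18: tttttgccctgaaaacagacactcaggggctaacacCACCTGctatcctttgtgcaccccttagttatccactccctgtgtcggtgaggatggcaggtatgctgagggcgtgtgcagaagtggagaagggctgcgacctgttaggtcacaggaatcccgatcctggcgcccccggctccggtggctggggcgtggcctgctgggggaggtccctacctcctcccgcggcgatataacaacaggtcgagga
Krt23: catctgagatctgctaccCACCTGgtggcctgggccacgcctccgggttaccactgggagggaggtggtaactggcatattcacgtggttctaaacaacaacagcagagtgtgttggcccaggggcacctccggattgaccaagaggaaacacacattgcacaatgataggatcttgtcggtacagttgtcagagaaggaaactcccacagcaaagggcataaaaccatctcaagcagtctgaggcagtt
Vim: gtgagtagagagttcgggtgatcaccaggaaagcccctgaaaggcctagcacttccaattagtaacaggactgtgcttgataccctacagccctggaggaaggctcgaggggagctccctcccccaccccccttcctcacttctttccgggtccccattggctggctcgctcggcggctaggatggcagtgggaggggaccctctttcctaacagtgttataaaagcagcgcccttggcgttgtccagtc
Each of the 4 keratin windows held 1 E-box, as CACCTG, at bases -44 to -39 from the start in Krt7, -111 to -106 in Krt8, -214 to -209 in Krt18 and -232 to -227 in Krt23. These 4 keratins are those called higher below, Krt23 among them though outside the 8 genes. The windows of keratins that were not called, such as Krt10 and Krt222, were not searched. The windows of Vim and Nes and both windows of Lmna held none. Over all 32851 RefSeq windows of this length, 17.2% held the 6-base E-box on either strand, and 15.3% did among the 11813 windows of genes abundant enough to be fitted. The shorter ZEB half-site CACCT or AGGTG, which the E-box contains, stood in 46.0% of all windows. It occurred at 2 further places in Krt7 and in Krt23, and once in each Lmna window. Of the 8 members, 6 had a RefSeq window (all but Krt19 and Lmnb1). In the GENCODE M21 annotation Krt8 and Krt18 start inside these windows, and Krt7 starts upstream of its window. By those starts the E-boxes of Krt7 and Krt8 lie after the start, and that of Krt18 before it. A match in letters is a description of the sequence, not a measured binding site.

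**Figure D1:**
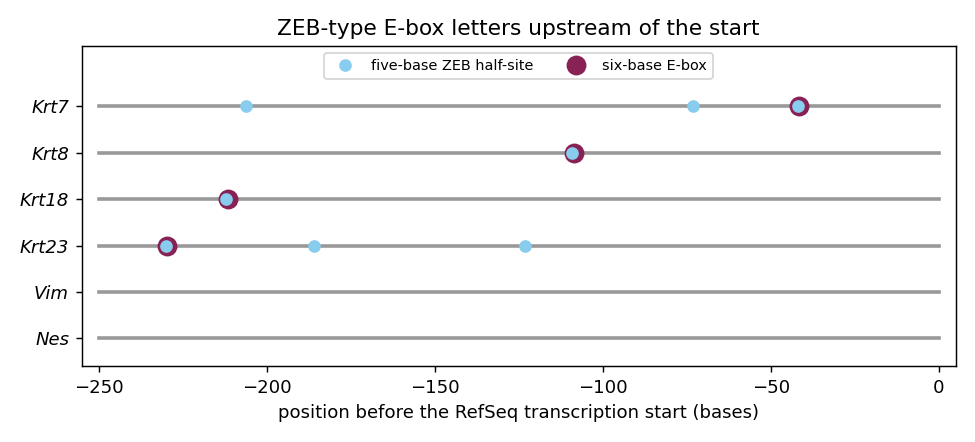
Positions of the 6-base E-box (large dots) and the 5-base half-site within it or elsewhere (small dots) in the 250 bases before the RefSeq start (x axis, bases) of 4 keratin genes, Vim and Nes. Each keratin line carries 1 large dot, between -232 and -39, and the lines of Vim and Nes carry none. The 4 keratins were picked as called higher, and Lmna, with a half-site in each window, is not drawn.

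Zeb1 itself was at 10.7 and 11.1 FPKM in the controls, against 8.66 and 7.07 FPKM in Zeb1-CKO cells, where FPKM counts sequenced fragments scaled to transcript length and library size. The difference did not pass the test (limma adjusted p = 0.235), and a value per gene cannot show the loss of part of a gene. Library sums were 283814 to 294276 FPKM. From the spacing of low values, control 2 had 0.511 of the depth of the deepest library, Zeb1-CKO 1. The endothelial genes Cldn5 and Esam were abundant in every library, at 2692 to 3500 and 308 to 339 FPKM. Limma on log2(FPKM + 1) was fitted to 13651 genes whose mean reached 1 FPKM, and a gene was called when its Benjamini-Hochberg adjusted p over all of them was under 0.05. By this test 304 genes (2.23%) were higher and 123 (0.901%) lower in Zeb1-CKO cells, 3.13% in either direction. These counts were 51 and 15 without Zeb1-CKO replicate 1, 48 and 24 without Zeb1-CKO replicate 2, 224 and 58 without control replicate 1, and 238 and 64 without control replicate 2. Fold changes on this scale are smaller than the ratio of FPKM for genes with low values.

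Among the 8 genes, the keratins Krt7, Krt8 and Krt18 rose from near 0 in Zeb1-CKO cells, while Vim, Nes and Lmna overlapped with the controls and did not pass the test. Krt18 had the largest log2 difference of the 8 and was the most abundant of the 4 keratins there. Lmnb1 was higher in both Zeb1-CKO libraries but did not pass the test, and Krt19 remained below 1 FPKM everywhere. Of the 7 genes fitted, 3 were called higher, 0 were called lower and 4 did not pass, against 3.13% of all fitted genes called. The 3 keratins reached the mean of 1 FPKM only through the Zeb1-CKO libraries, so a keratin that is silent in controls could be fitted only by being higher there, and their count is a description. For 5 of the 8 genes both Zeb1-CKO libraries lay above both controls. This was so for 27.1% of all fitted genes, the reverse for 22.3%, and either for 49.4%.

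**Figure D2:**
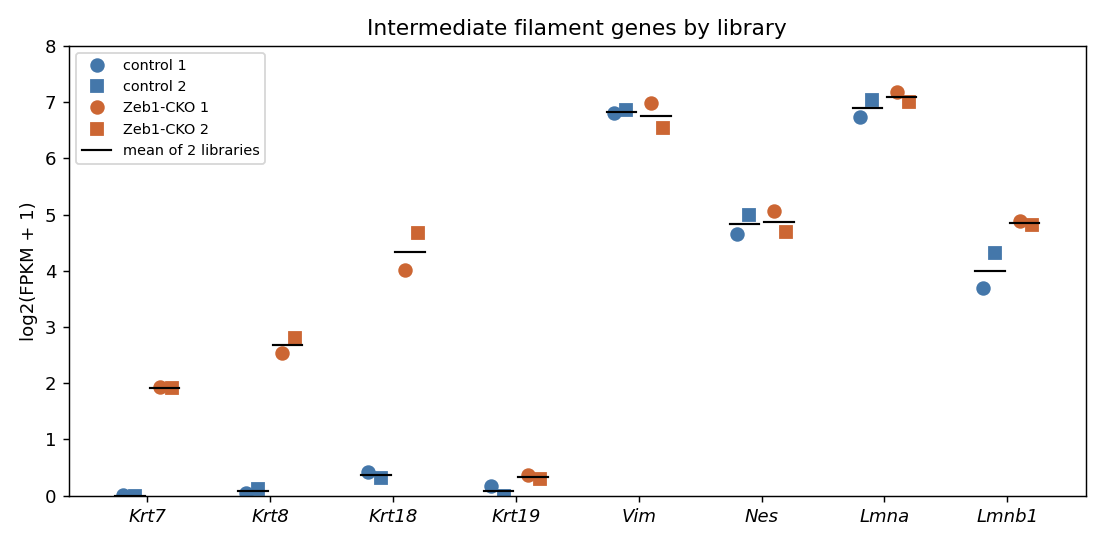
Log2(FPKM + 1) of each of the 8 genes (y axis) in control (blue) and Zeb1-CKO (orange) libraries, with circles for replicate 1, squares for replicate 2 and a line at the mean of 2. Krt7, Krt8 and Krt18 stand near 0 in controls and apart from them in Zeb1-CKO libraries, while the points of Vim, Nes and Lmna interleave.

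Krt18, the type I keratin of simple epithelia, lies on chromosome 15 from 102028180 to 102032027 in mm10. Its level was 0.343 FPKM in control 1, 0.249 in control 2, 15.2 in Zeb1-CKO 1 and 24.4 in Zeb1-CKO 2. Both Zeb1-CKO libraries were far above both controls, and Zeb1-CKO 2 was the higher of the pair. The mean was 0.296 ± 0.0668 FPKM for the controls and 19.8 ± 6.50 FPKM after Zeb1 targeting (SD, n = 2 each), which is 66.9-fold higher. Its log2 difference was 3.97 (SE 0.24, limma adjusted p = 0.00231) and ranged from 3.65 to 4.29 when each library was left out in turn, with the call kept in all 4 of these fits. The steps between low FPKM values place the control levels at about 20.4 and 8.06 steps, a step being the smallest unit of reads, so Krt18 was detected in control cells at a low level.

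Krt8, the type II partner of Krt18 (chromosome 15, 101996698 to 102004482, opposite strand), was at 0.0274 and 0.0915 FPKM in the control pair, and the Zeb1-CKO pair had 4.80 and 6.03 FPKM. As for Krt18, both Zeb1-CKO libraries exceeded both controls and Zeb1-CKO 2 was the higher. The control values amount to about 2.22 and 4.04 steps, too few for a useful ratio. The log2 difference was 2.59 (SE 0.20, limma adjusted p = 0.00399). The call ended without Zeb1-CKO replicate 1 (log2 difference 2.73, limma adjusted p = 0.0501) and without replicate 2 (2.45, adjusted p = 0.0603), with a similar difference in each. The transcript of the pseudogene Krt8-ps is 98.6% identical to that of Krt8 over 941 bases. Krt8-ps was listed at 0 or at most at 0.221 FPKM in every library, which is less than the difference seen in Krt8.

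Krt7, a second type II keratin that is made by ducts and other simple epithelia (chromosome 15, 101411043 to 101430313), was at 0.00311 FPKM in control 1, listed at 0 in control 2, and at 2.82 and 2.77 FPKM in Zeb1-CKO libraries. The value in control 1 is below 1 step of the longest Krt7 transcript, so neither control held a whole step of it. The Zeb1-CKO libraries lay close together for Krt7, unlike for Krt18. The log2 difference was 1.92 (SE 0.21, limma adjusted p = 0.0125), and the call held without either control. Without either Zeb1-CKO library the mean of Krt7 fell below 1 FPKM and it was not fitted. When all genes above 0 were fitted, which adds many genes near 0, the difference was the same and the adjusted p was 0.108.

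Krt19, the smallest keratin, which lacks the tail of the others and lies among the type I genes of chromosome 11 (100140810 to 100148665), was at 0.131 FPKM in control 1, 0 in control 2, and 0.283 and 0.235 FPKM in Zeb1-CKO libraries. Both Zeb1-CKO values were above both control values, but all were under 1 FPKM and the gene was not tested. Krt19 was thus barely detected where Krt7, Krt8 and Krt18 rose.

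Of 49 further keratin genes, 12 were listed at 0 in every library and 46 stayed under 1 FPKM in every library. Of the 3 that were fitted, Krt23 was called higher and Krt10 and Krt222 did not pass, against 2.23% of all fitted genes called higher. The median log2 difference of the 3 was -0.04, against 0.02 over all fitted genes. With a control mean of 0.903 FPKM, Krt23 reached the filter only through the Zeb1-CKO libraries. Krt23, a divergent type I keratin on chromosome 11, was at 1.26 and 0.542 FPKM in the controls, against 21.9 and 22.8 FPKM in Zeb1-CKO cells. Its log2 difference was 3.64 (SE 0.22, limma adjusted p = 0.00221), and it stayed called whichever library was left out. Krt10, a keratin of the upper epidermis, was at 1.45 and 1.14 FPKM against 1.09 and 1.37. Krt222 was at 2.30 and 2.31 FPKM in controls and 1.41 in each Zeb1-CKO library, lower in both but with a limma adjusted p of 0.256.

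Summed over all 53 keratin genes, the level was 6.76 and 5.95 FPKM in the control pair, and the Zeb1-CKO pair had 49.7 and 61.1 FPKM. Krt18 and Krt23 made up most of the sum in Zeb1-CKO cells, at 30.6% and 44.1% in library 1 and 39.9% and 37.3% in library 2. Krt7, Krt8, Krt18 and Krt23 together gave 89.9% and 91.6% there, against 24.2% and 14.8% in the controls. By chain type, Krt18, Krt19 and Krt23 summed to 37.4 and 47.4 FPKM in Zeb1-CKO libraries, whereas the type II chains Krt7 and Krt8 summed to 7.62 and 8.79 FPKM. Type I messages were thus more abundant than type II messages in both Zeb1-CKO libraries. Krt18 alone stood at 3.17 and 4.05 times Krt8. In the controls this ratio was 12.5 and 2.72, from values of few steps.

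**Figure D3:**
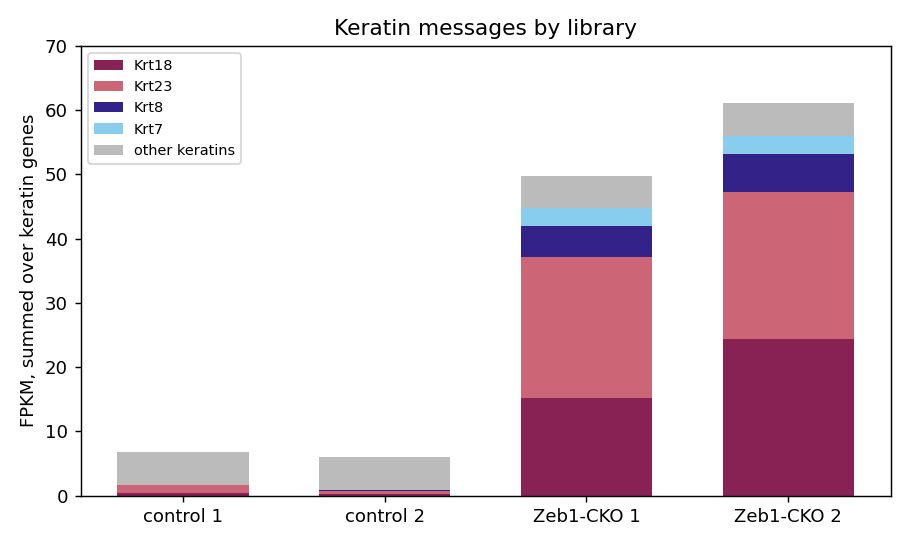
FPKM summed over all 53 keratin genes (y axis, from 0) in each library, split into Krt18, Krt23, Krt8, Krt7 and all others. The Zeb1-CKO bars reach 49.7 and 61.1 FPKM, mostly Krt18 and Krt23, while the grey part of other keratins is similar in all 4 bars.

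Vimentin, the main cytoplasmic filament of endothelium (chromosome 2, 13573927 to 13582826), was at 111 and 115 FPKM in the controls, against 125 and 91.7 FPKM in Zeb1-CKO cells. The Zeb1-CKO values lay on both sides of the controls. The log2 difference was -0.08 (SE 0.18, 95% interval -0.52 to 0.37, limma adjusted p = 0.867), and it was 0.15 without Zeb1-CKO replicate 2. A change within that interval cannot be told from 0 with 2 libraries each. Vim was more abundant than the keratins in every library. It stood at 323 and 463 times Krt18 in controls and at 8.23 and 3.76 times in Zeb1-CKO libraries, and at 2.52 and 1.50 times all keratins summed there.

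Nestin (chromosome 3, 87971078 to 87980451) was at 24.3 and 31.0 FPKM in the control pair, and the Zeb1-CKO pair had 32.2 and 24.9 FPKM. The ranges of the genotypes overlapped almost wholly. Its log2 difference was 0.05 (SE 0.19, 95% interval -0.43 to 0.52, limma adjusted p = 0.925), with a sign that turned under other scalings. The ratio of Vim to Nes was 4.56 and 3.72 in the control pair, with 3.88 and 3.68 in the Zeb1-CKO pair, so both messages kept a similar proportion in all 4.

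Of 14 other filament genes outside the keratins, 6 were fitted and 0 were called in either direction by limma, against 3.13% of all fitted genes. Of the 6, 2 had an unadjusted limma p under 0.05, a level whose share over all fitted genes is not given here. Their median log2 difference was -0.26, against 0.02 over all fitted genes. Gfap, the filament of astrocytes and reactive Müller glia, was at 56.7 and 60.6 FPKM in the controls, against 68.2 and 137 FPKM in Zeb1-CKO cells. Its high value rested on Zeb1-CKO 2. Desmin (Des), the filament of muscle and pericytes, was at 23.8 and 25.3 against 19.6 and 18.0 FPKM. Synemin (Synm), which joins vimentin or desmin filaments, was at 14.7 and 18.0 against 9.31 and 9.11 FPKM, lower in both Zeb1-CKO libraries (limma adjusted p = 0.0680).

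Marker genes of other retinal cells were detected in every library. The pericyte and smooth muscle list of 12 genes, which includes Des, summed to 2522 and 2037 FPKM in the control pair, and the Zeb1-CKO pair had 1664 and 1817 FPKM, with Rgs5 and Myl9 the most abundant. All 11 of its fitted genes had a negative log2 difference, and 1 of them (Tagln) was called lower. Of all 13651 fitted genes, 7208 had a positive log2 difference and 0.901% were called lower. The Müller glia and astrocyte list of 11 genes, which includes Gfap, summed to 265, 260, 277 and 378 FPKM in control 1, control 2, Zeb1-CKO 1 and Zeb1-CKO 2, with Dkk3 and Gfap highest and Aqp4 listed at 0 in both controls. Of the 8 genes fitted in the glial list, 7 had a positive log2 difference and 1 a negative one. The negative one was Glul, named after its values were seen, at 71.9 and 64.8 against 44.9 and 45.3 FPKM (limma adjusted p = 0.0837). Pericytes and glia also express vimentin and nestin, and their part in the levels of Vim, Nes, Gfap, Des and Synm was not tested. In such bulk samples, fewer cells of a type and less RNA per cell cannot be told apart. Lyz2, a lysozyme of microglia and macrophages, was at 9.27, 18.3, 14.1 and 1.48 FPKM in control 1, control 2, Zeb1-CKO 1 and Zeb1-CKO 2. Sag, the arrestin of rod photoreceptors, was at 15.7, 1.87, 9.21 and 11.7 FPKM in the same order, lowest in control 2.

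Markers of the keratin-bearing epithelia of the eye were measured beside the keratins. In the list of 10 genes of cornea, conjunctiva and skin, 9 stayed under 1 FPKM in every library, and Krt14 and Krt13 were listed at 0 in every library. Krt5 and Krt12 were at most 0.0553 and 0.0727 FPKM. The list summed to 1.82 and 1.78 FPKM in the controls, mostly from Krt10 and Krt15. In Zeb1-CKO cells it summed to 1.24 and 1.60 FPKM, mostly from Krt10. Of 12 genes of the retinal pigment epithelium, which can make Krt8 and Krt18, 9 stayed under 1 FPKM in every library. Only 3 were fitted and 0 of them were called, against 3.13% of all fitted genes, so that count says little. Rpe65, its retinoid isomerase, was at 0.0190 and 0.0191 in the control pair and listed at 0 in both Zeb1-CKO libraries, and Tyrp1 was listed at 0 in 3 libraries. Pmel, a pigment granule protein, was at 0.494 and 0.514 against 1.42 and 1.62 FPKM, higher in both Zeb1-CKO libraries (limma adjusted p = 0.143). That list summed to 23.6, 23.5, 23.1 and 30.0 FPKM in control 1, control 2, Zeb1-CKO 1 and Zeb1-CKO 2, mostly from Rlbp1, which Müller glia also make, with Best1 next. In the Zeb1-CKO libraries, Krt10 (1.09 and 1.37 FPKM), Best1 (1.08 and 1.48), Pmel and Rlbp1 (19.8 and 26.2) were the genes of these lists above 1 FPKM. The part of either epithelium in the keratin levels was not tested.

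Lamins are the members of the nucleus. Lmna, which encodes lamins A and C (chromosome 3, 88480147 to 88509956), was by mean the most abundant of the 8 genes in both genotypes. It was at 105 and 131 FPKM in the control pair, and the Zeb1-CKO pair had 144 and 128 FPKM. In control 1 Vim was higher, at 111 FPKM. The ranges of Lmna overlapped between the genotypes, and its log2 difference was 0.21 (SE 0.16, 95% interval -0.19 to 0.61, limma adjusted p = 0.565). Lmnb1, a B-type lamin that is high in dividing cells (chromosome 18, 56707813 to 56753424), was at 11.9 and 18.8 FPKM in the controls, against 28.7 and 27.0 FPKM in Zeb1-CKO cells. The genotypes did not overlap, as was also so for 27.1% of fitted genes in this direction. The log2 difference of 0.85 (SE 0.22) did not pass (limma adjusted p = 0.128), and it was 1.16 with an adjusted p of 0.0404 without control replicate 2. The ratio of Lmna to Lmnb1 was 8.82 and 6.95 in the control pair, with 5.03 and 4.74 in the Zeb1-CKO pair.

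The 17 genes of lamin partners and processing enzymes gave no call. Of 15 fitted, 0 were called by limma, against 3.13% of all fitted genes. Of the 15, 2 had an unadjusted limma p under 0.05, a level whose share over all fitted genes is not given here. The log2 difference was positive in 9 and negative in 6. Banf1, a chromatin-bridging factor of the envelope, was at 156 and 120 FPKM in the control pair, and the Zeb1-CKO pair had 131 and 149 FPKM. Fnta, a farnesyltransferase subunit that lipidates lamins, was at 27.2 and 21.4 against 30.6 and 35.6 FPKM. Since Lmnb1 is linked to cell division, 13 cell cycle genes were set beside it. All were fitted, 12 had a positive log2 difference, 1 was called higher and the median was 0.42. Over all 13651 fitted genes, 7208 had a positive log2 difference, 2.23% were called higher and the median was 0.02. The one called, Mcm3 of the replicative helicase, was at 8.14 and 8.04 against 16.4 and 16.6 FPKM, and the call ended whichever library was left out (limma adjusted p 0.0730 to 0.144). Ccnb2 was at 31.1 and 27.6 against 48.1 and 36.1 FPKM, and Pcna at 40.0 and 39.6 against 40.3 and 35.1 FPKM.

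Keratin filaments are anchored to junctions and other filaments by plakins, plakophilins and adaptor proteins. Of 17 such linker genes, 11 were fitted, 3 were called higher, 0 were called lower and 8 did not pass. Among those fitted, 7 had a positive and 4 a negative log2 difference, with a median of 0.22. Over all fitted genes 2.23% were called higher and the median was 0.02, and 2 of the 3 linkers called could be fitted only through the Zeb1-CKO libraries. Pkp3, a desmosomal plakophilin of epithelia, was at 0.249 and 0.0115 FPKM in the controls, against 10.7 and 10.2 FPKM in Zeb1-CKO cells (log2 difference 3.35, SE 0.19, limma adjusted p = 0.00171). Pkp2, its relative in simple epithelia and heart, was at 0.362 and 0.565 against 5.41 and 7.82 FPKM (2.36, SE 0.22). Its call ended without Zeb1-CKO replicate 1 or 2 (limma adjusted p up to 0.0694) and with no filter on low values (0.0779). Sfn, the epithelial 14-3-3 protein that binds Krt18, was at 1.77 and 1.47 against 4.30 and 6.69 FPKM. Its limma adjusted p of 0.0491 lay close to the threshold, and the call ended whichever library was left out (limma adjusted p 0.0830 to 0.204). The near-identical pseudogene Gm7850 of Sfn was at most at 0.141 FPKM. The 2 linkers fitted only through the Zeb1-CKO libraries were Pkp2 and Pkp3.

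The most abundant linkers did not pass the test. Jup, plakoglobin, which ties cadherins to filaments, was at 31.8 and 39.0 FPKM in the control pair, and the Zeb1-CKO pair had 41.1 and 36.3 FPKM, with overlapping ranges. Dnajb6, a chaperone that binds Krt18, was at 15.3 and 13.4 against 17.9 and 16.5 FPKM (limma adjusted p = 0.437). Plec, the plakin that cross-links keratin, vimentin and actin, was at 7.04 and 10.9 FPKM in the controls, against 19.4 and 19.1 FPKM in Zeb1-CKO cells. Plec is named after its values were seen. Its log2 difference of 1.05 (SE 0.21) did not pass (limma adjusted p = 0.0688), and was called only without control replicate 2 (0.0276). Among 15 mesenchymal genes that often accompany vimentin, 12 were fitted, 0 were higher and 1 was lower, with a median log2 difference of -0.34. Of all fitted genes 0.901% were called lower, and their median was 0.02. The 1 lower gene is also the 1 called in the pericyte and smooth muscle list above. The lower gene, Tagln of smooth muscle, was at 16.6 and 14.8 against 7.85 and 8.57 FPKM, and its call ended whichever library was left out (limma adjusted p 0.0807 to 0.195). Tagln shares 1241 of its 1988 exon bases with the opposite-strand gene Gm48529, and the library protocol does not mark strand. Fn1 was at 232 and 243 against 191 and 177 FPKM and Itga5 at 48.5 and 52.9 against 62.5 and 62.5 FPKM; neither passed.

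**Figure D4:**
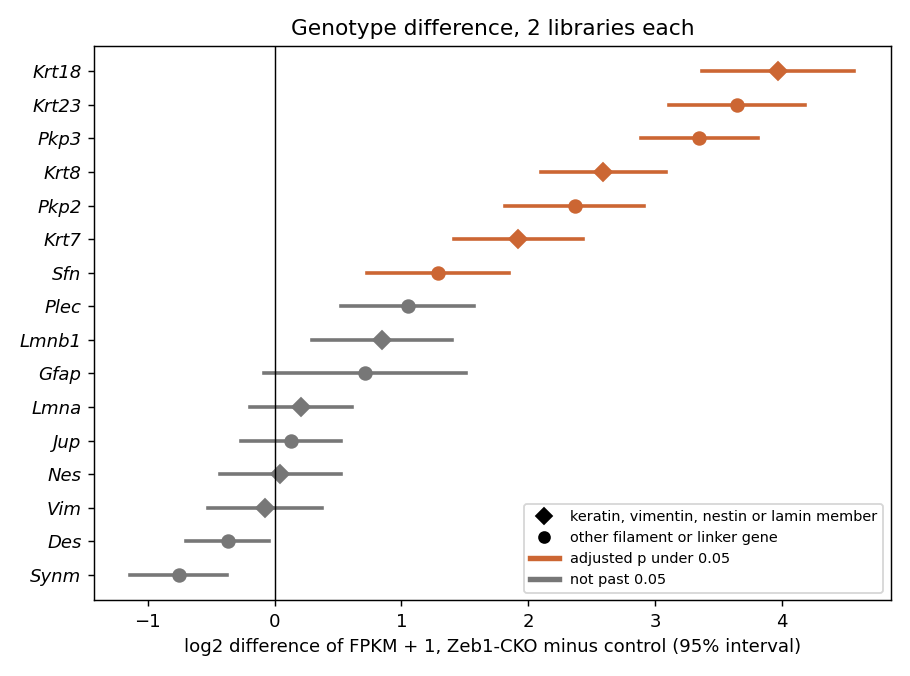
Log2 difference of FPKM + 1 between Zeb1-CKO and control (x axis) with its 95% interval from limma, for 7 of the 8 genes (diamonds) and for some filament and linker genes named in the text (circles). Krt10, Krt222, Dnajb6, Pkp4, Dst and Macf1, which were fitted and not called, are not drawn. Genes called at an adjusted p under 0.05 are orange, and the intervals of Lmna, Nes and Vim include 0.

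By group mean, the order of levels down to Krt18 was the same in both genotypes. Below it, Krt19 stood above Krt8 and Krt7 in controls and below them in Zeb1-CKO cells. In controls that place rested on 0.131 FPKM in control 1, since Krt19 was listed at 0 in control 2. In controls Lmna (118 ± 18.1 FPKM) and Vim (113 ± 3.24) led and were not apart beyond their spread. They were followed by Nes (27.6 ± 4.76) and Lmnb1 (15.4 ± 4.88), and the 4 keratins lay at or below 0.343 FPKM in each library (SD, n = 2). In Zeb1-CKO cells Lmna (136 ± 11.7 FPKM) lay above Vim (108 ± 23.7), and the values of Nes (28.6 ± 5.17) and Lmnb1 (27.8 ± 1.21) overlapped. Krt18 (19.8 ± 6.50) came next, below Nes and Lmnb1 in both libraries, then Krt8 (5.41 ± 0.867), Krt7 (2.79 ± 0.0363) and Krt19 (0.259 ± 0.0341). FPKM is scaled to transcript length, which allows levels of different genes to be set side by side.

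Beyond the keratins, no genomic neighbour of Krt18 or Krt8 was called. Krt8 and Krt18 start 23.7 kb apart on chromosome 15, at the end of the type II cluster, and Krt18 is the one type I keratin there. Within 100 kb of Krt18, 3 genes were fitted, and Krt8 was the 1 called, against 3.13% of all fitted genes called. The housekeeping gene Eif4b, 45.6 kb from Krt18, was at 45.5 and 48.9 FPKM in the control pair, and the Zeb1-CKO pair had 46.4 and 40.3 FPKM. The focal adhesion gene Tns2, 72.2 kb away, was at 27.5 and 25.6 against 23.3 and 22.5 FPKM. The keratins Krt78 and Krt79 on the other side were at most at 0.237 FPKM. Krt7 lies 593 kb from Krt8, and none of the 14 genes within 100 kb of it was fitted. Its neighbour Krt87 was at 0.0962 and 0 FPKM in the controls, against 0.834 and 0.900 FPKM in Zeb1-CKO cells, too low to be tested. None of the 12 genes near Krt19 was fitted either.

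Near the other members, 12 genes around Lmna, 8 around Nes and 1 around Vim were fitted, and 1 was called. The share called over all fitted genes was 3.13%. The 1 called was Rab25, an epithelial small GTPase 38.3 kb from the Lmna start, named after its values were seen, at 0.577 and 0.248 FPKM in the control pair, and the Zeb1-CKO pair had 3.72 and 4.06 FPKM (limma adjusted p = 0.0164). Like the keratins it reached the filter only through the Zeb1-CKO libraries. Its call ended without Zeb1-CKO replicate 1 or 2 and with no filter on low values (limma adjusted p 0.119 to 0.127). The nearest abundant genes around Lmna (Mex3a, Gm5979, Lamtor2 and Ubqln4) and around Nes (Bcan, Isg20l2, Mrpl24 and Hdgf) did not pass, with log2 differences of -0.50 for Mrpl24 to 0.48 for Ubqln4.

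The genes closest in pattern were found by the distance over the 4 libraries between log2(FPKM + 1) values, each set to the mean of its controls. For Krt18 they were Tmc4, Cdcp1 and Spint2, a channel-like membrane protein, an epithelial surface receptor and a serine protease inhibitor. For Krt8 they were Ano9, Kdf1 and Gpihbp1, and for Krt7 they were Igsf9, Crb3 and Dsg2. Crb3 is an epithelial polarity protein, Dsg2 the desmosomal cadherin of simple epithelia, and Gpihbp1 the capillary anchor of lipoprotein lipase. Cdcp1 was at 0.0274 and 0.132 FPKM in the controls, against 15.9 and 15.7 FPKM in Zeb1-CKO cells. Gpihbp1 differed from the others in being abundant in controls, at 13.7 and 12.6 FPKM, before reaching 77.4 and 102 FPKM. These 9 genes were chosen for being near to called keratins, so their being called higher as well follows from the choice. Of the 9, only Gpihbp1 and Spint2 had a control mean of at least 1 FPKM, and the others reached the filter only through the Zeb1-CKO libraries. The genes nearest to Vim (Gcc2, Robo1 and Bhlhe40) and to Krt19 (Mak16, Itpr3 and Fer) did not pass. Likeness over 4 libraries is a description and was not tested.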

How the data were processed

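RNA sequencing values were taken for 2 control and 2 Zeb1-CKO libraries. Per the labels' protocols, cDNA was made with the SMART-Seq v4 kit, an unstranded method. Trimmomatic 0.36, HISAT2 2.1.0, StringTie 1.3.3 and build mm10 are named, per the submitters' processing notes, without settings. The deposited values are FPKM per gene as made by the authors; the unit was read from the values and tools, since the header names none. All columns were matched to samples by name.

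Values were compared as log2(FPKM + 1) by limma-trend (limma 3.58.1 in R 4.3.3) in a model of genotype alone, over genes whose mean reached 1 FPKM. Count tests were not run. Relative depth was estimated from the spacing of low FPKM in genes with 1 transcript over 600 bases. There 11.7% to 16.7% of values lay within 0.02 of a whole step, against 4% for evenly spread values. The step was chosen to fit these same values, so part of that excess follows from the choice. Most values lay off a step, and depths and step counts are approximate. Whether a step is a fragment or a single read is not known. Intervals rest on the spread between libraries, which limma draws toward a trend over all genes. They can be wider or narrower than the spread of that gene alone. Keratins are genes named Krt, a number and an optional letter. Gene spans are from GENCODE M21, in which 53229 identifiers matched with the same start. Near-identical copies had at least 95% identity over 80% of a transcript (BLAST 2.17.0).

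Named genes were the 8 members; called members and the 3 most abundant of the keratin and filament lists; up to 4 called and the 2 most abundant of other lists; up to 4 neighbours within 100 kb with a mean of at least 5 FPKM; and the 3 nearest in pattern. The cell marker lists were named by their 2 most abundant genes. Of the microglial and rod lists, 1 gene each is given, and their sums and other genes are not reported here. The members and lists were chosen with earlier results of these data known. Alternatives were other pseudocounts, filters, scalings and variance models, the replicate number as a block, and each library left out. Figures used matplotlib 3.10.9 under Python 3.11.15.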

Additional observations from a re-analysis of the deposited data

How the results depend on the processing

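The calls of Krt18 and Krt23 were kept in all 15 alternatives, and Vim, Nes and Lmna were called in none. Krt7 lost its call with no filter on low values (log2 difference 1.92, limma adjusted p = 0.108); it had no value under the filter of at least 5 FPKM, like Krt8, or without either Zeb1-CKO library, and Krt19 had none with quantile normalization or the crossed pairing. Leaving out a library in turn, Krt8 ranged from 2.45 to 2.73 and ended without either Zeb1-CKO library, and Lmnb1 ranged from 0.54 to 1.16 and was called without control replicate 2. Nes changed sign with upper-quartile scaling (-0.00525) and quantile normalization (-0.00174), and ranged from -0.13 to 0.22 over the fits without 1 library. Vim ranged from -0.30 to 0.15 there. Of the genes nearest in pattern to the keratins, Kdf1, Crb3, Igsf9 and Dsg2 lost their calls with no filter (limma adjusted p 0.0714, 0.0788, 0.0867 and 0.0959), and these and Ano9 lost them without 1 or both Zeb1-CKO libraries in turn (up to 0.104); Dsg2 had no value without Zeb1-CKO replicate 1. The untested difference of Krt19 was 1.24 with a pseudocount of 0.1, 0.0543 with 5 and 0.661 after scaling to TPM. The values of such a low gene follow the pseudocount.

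All genes called higher numbered 70 with no filter, 169 with a mean of at least 5 FPKM, 155 with the replicate block and 48 to 238 without 1 library. Those called lower numbered 15 with no filter, 38 with the block and 15 to 64 without 1 library. Without Zeb1-CKO replicate 1, 51 were higher and 15 lower, and without replicate 2, 48 and 24. Upper-quartile scaling called 284 higher and 168 lower, and no scaling moved the median of all genes by over 0.1. Linkers called higher numbered 1 with no filter and 1 with the filter at 5 FPKM, and 1 to 3 without 1 library. The cell cycle count was 0 with no filter, 0 with the block and 0 without any 1 library. The mesenchymal count of lower genes was 0 with no filter, 0 without trend, 0 with the block, 0 without any 1 library, and 2 with upper-quartile scaling and 2 with quantile normalization.

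Same-numbered libraries share only a number. Their deviations correlated at -0.118 across genes, and the crossed pairing, chosen after seeing the data, gave 306 higher and 149 lower genes. Under the replicate block Krt7, Krt8 and Krt18 stayed called, and of the named genes Mcm3, Sfn and Tagln lost their calls (limma adjusted p 0.0847, 0.0944 and 0.111). Differences near 0 also turned sign: Banf1 (-0.0237 with upper-quartile scaling, -0.16 to 0.22 without 1 library), Jup (-0.0140 to 0.27), Krt10 (-0.14 to 0.0540), Pcna (-0.18 to 0.0185), Bhlhe40 (-0.29 to 0.13), Gcc2 (-0.28 to 0.14), Robo1 (-0.26 to 0.14), Gm5979 (-0.15 to 0.60), Hdgf (-0.00456 to 0.15), Isg20l2 (-0.0835 to 0.21), Lamtor2 (-0.73 to 0.17) and Mex3a (-0.31 to 0.0647). The causes were not tested. In controls Krt7 was under 1 step and Krt8 at a few, so their control levels are known only roughly. Relative depth was 0.939 in control 1, 0.511 in control 2 and 0.766 in Zeb1-CKO 2.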

Other observations

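Some keratins were too low to be fitted but did not overlap between the genotypes. Krt15, a keratin of basal epithelial cells, was at 0.274 and 0.481 FPKM in the control pair, and the Zeb1-CKO pair had 0 and 0.0350 FPKM, opposite to Krt18. Krt20, a type I keratin of gut epithelium, was at 0.0362 and 0.289 against 0.633 and 0.432 FPKM. These genes were picked after their values were seen.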
